A study of Mus musculus with 6 samples.

Results

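Mitochondrial ribosomal proteins were compared between treated and untreated RAW 264.7 cells, a mouse macrophage line that grew from a tumour induced by Abelson leukaemia virus. All probes whose platform gene symbol is Mrpl or Mrps followed by a digit were taken, which gave 69 of 16281 probes and 62 of 10698 genes. The treated cells had received lipopolysaccharide (LPS) at 100 ng/ml together with its serum carrier, LPS-binding protein, at 100 pM for 48 h, and the control cells were kept for the same 48 h without either. The labels also write the line as RAW 264.4 in places. Whether the sets are separate cultures is not said in them, and the spread that the p-values rest on may therefore be technical. RNA of both conditions was hybridised together on 6 two-colour arrays, with treated RNA in the red dye Cy5 on 3 arrays and in the green dye Cy3 on the other 3, and each orientation had sets 1, 2 and 3.

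Mitochondria have their own ribosome, which translates the few messages that mitochondrial DNA encodes, all of them for subunits of the respiratory chain and the ATP synthase. Its RNAs come from mitochondrial DNA, but its proteins, named Mrpl for the large and Mrps for the small subunit, are encoded in the nucleus, made in the cytosol and imported. Some of them have a bacterial homologue and others occur only in mitochondrial ribosomes. Macrophages exposed to LPS are known for a shift from respiration towards glycolysis.

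A value above 0 means more signal from treated than from untreated cells. Values are on the log2 scale, with the ratio of Cy5 to Cy3 turned where the treated RNA was in Cy3, and with ratios listed at exactly 0 taken as missing. No source used here states the base of the logarithm, which was read as 2, and with another base the folds would differ. The files hold ratios and no levels, so neither the abundance of a transcript nor that of a marker of macrophages or of other cells can be read from them. In such bulk RNA, fewer cells of a kind and less RNA per cell cannot be told apart. Before turning, pairs of arrays with the same orientation had correlations of 0.73 to 0.81 over probes, and pairs with opposite orientation had -0.69 to -0.44. The sign of the ratio rests on the labels and on all 9 probes of Il1b, Il6, Tnf and Nos2, textbook LPS-induced genes, which were above 0 on all 6 arrays once turned. Among macrophage markers 3 of 8 tested probes rose (Fcgr1 at 1.96, Adgre1 at 0.94 and probe 7610 of Ptprc at 0.40) and 1 fell (Csf1r at -0.53). The other Ptprc probes, at -0.08 and 0.08, did not pass. Among 10 tested probes of T cell, B cell, fibroblast and epithelial markers 2 rose, the B cell marker Cd79a at 0.63 ± 0.11 and the fibroblast marker Dcn at 2.68 ± 0.95, and 0 fell. The part of the marker changes in the results below was not tested.

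The mitochondrial ribosomal protein genes did not move as a block. A few rose, led by Mrpl52 at 1.95-fold, a similar number fell, led by Mrps6 at 1.47-fold, and most stayed within 0.32 of 0 on the log2 scale. Of the 66 probes with a value on all arrays, which cover 59 genes, 8 rose and 8 fell (limma on 3 set means, adjusted p under 0.05), and 50 did not pass. Across all 12724 probes tested in the same fit, 14.8% rose and 12.2% fell, against 12.1% and 12.1% of the members, so the share of changed members was near the background. The median of the 66 members was -0.08, and that of all tested probes was -0.01. Large changes were few: 3 members, or 4.55%, differed by at least 0.5 in either direction, against 12.8% of all tested probes. The counts depend on the processing. With zeros kept as values 5 members rose and 4 fell, and without set 1, 2 or 3 the counts were 3 and 3, 2 and 3, and 5 and 3. None of the called members had a zero, so keeping zeros left their own values as they were. That setting altered only the fit and the adjustment over all probes. Mrpl52, Mrpl27 and Mrps6 passed under all 10 alternatives that were run.

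**Figure D1:**
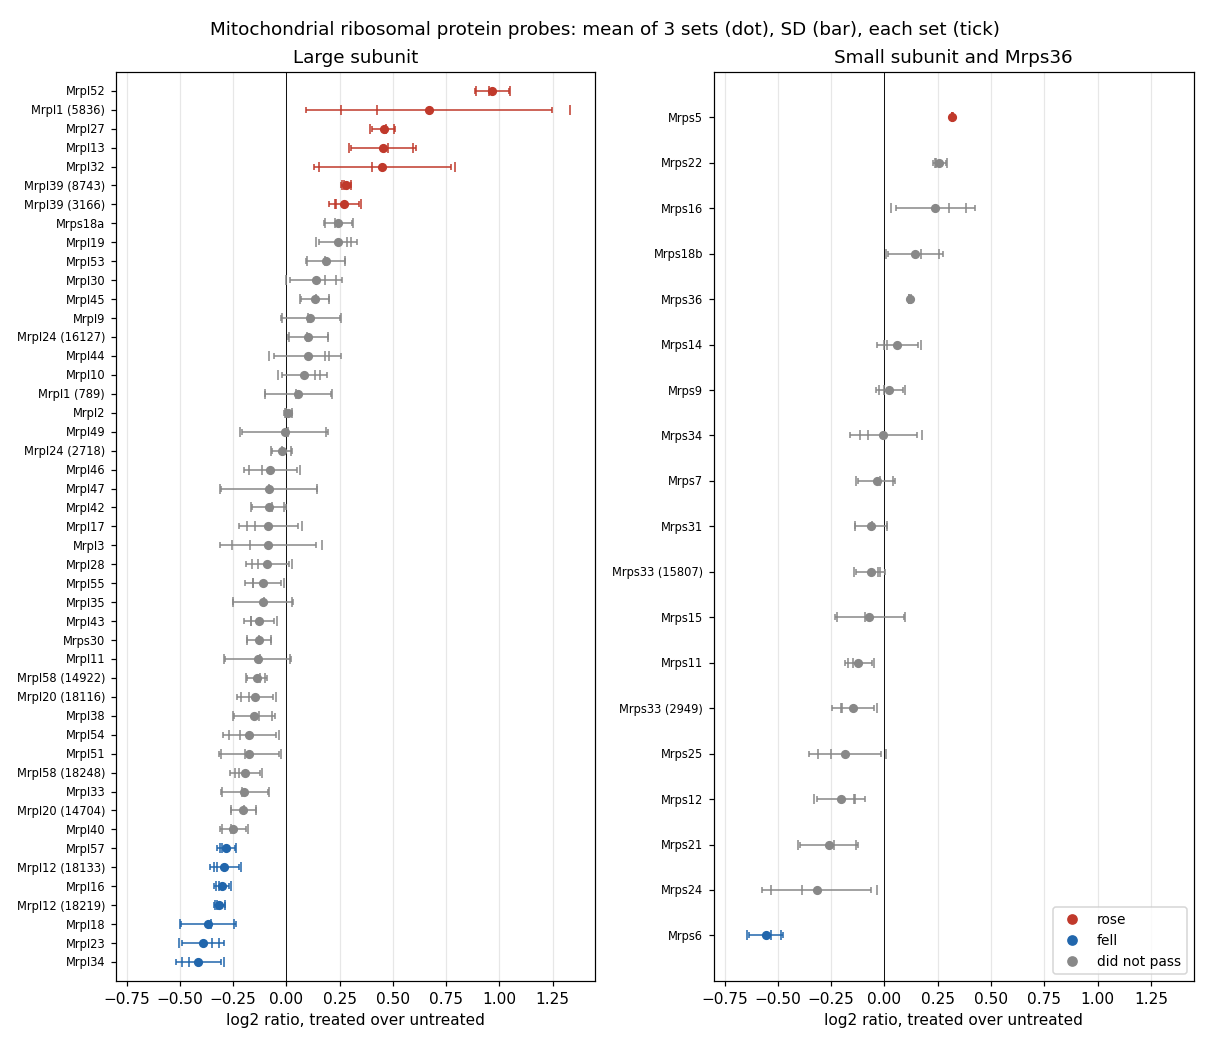
Mean log2 ratio of treated over untreated cells (x axis) for each tested member probe (y axis, probe number in brackets where a gene has several), split by subunit. Dots are means of 3 sets, bars the SD and ticks the single sets. Most probes lie between -0.32 and 0.26 and did not pass, 8 rose and 8 fell, and Mrpl52 at 0.96 is the highest.

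**Figure D2:**
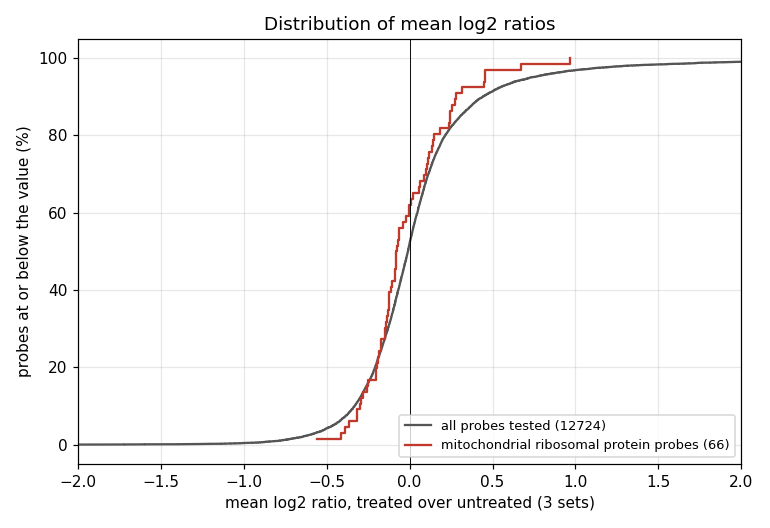
Share of probes (y axis, %) at or below each mean log2 ratio (x axis) for all 12724 tested probes and for the 66 member probes. The member curve lies within -0.56 and 0.96 and that of all probes runs from -1.99 to 5.36, beyond the end of the axis at 2.

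Mrpl52, Mrpl27 and Mrps6, the members that passed under all 10 alternatives, are described first. The 250 bases before the annotated start of each are shown because members that change in opposite directions can be compared there, and because start regions of this gene family are known for sites of the factors GABP (an ETS protein), NRF1 and YY1. They are given 5′ to 3′ on the plus strand of GRCm38.p6, from RefSeq, and capitals mark a match to the ETS letters CCGGAAG on either strand. Mrpl52 lies at chr14:54426659-54426908, Mrpl27 at chr11:94653541-94653790 and Mrps6 at chr16:92058086-92058335.
Mrpl52: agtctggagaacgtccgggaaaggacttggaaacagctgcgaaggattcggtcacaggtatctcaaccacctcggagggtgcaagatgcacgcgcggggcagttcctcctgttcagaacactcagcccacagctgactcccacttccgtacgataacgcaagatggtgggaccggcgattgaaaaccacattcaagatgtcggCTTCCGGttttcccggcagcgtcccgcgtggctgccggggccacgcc
Mrpl27: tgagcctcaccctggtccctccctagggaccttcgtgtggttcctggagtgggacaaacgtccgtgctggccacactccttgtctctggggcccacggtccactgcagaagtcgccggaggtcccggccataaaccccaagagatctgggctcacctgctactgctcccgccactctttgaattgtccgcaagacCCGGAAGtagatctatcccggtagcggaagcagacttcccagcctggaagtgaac
Mrps6: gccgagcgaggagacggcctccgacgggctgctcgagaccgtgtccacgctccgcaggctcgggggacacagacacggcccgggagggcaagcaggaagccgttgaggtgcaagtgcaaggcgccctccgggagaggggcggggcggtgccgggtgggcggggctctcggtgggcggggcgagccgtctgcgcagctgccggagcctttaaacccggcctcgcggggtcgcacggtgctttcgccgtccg
The ETS letters begin 47 bases before the start of Mrpl52, as the reverse complement, and 55 bases before that of Mrpl27. None of the letters searched is in the window of Mrps6, which says only that these letters are not there.

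Mrpl52 encodes a protein of the large subunit that occurs only in mitochondrial ribosomes. It read 0.69, 0.70 and 0.57 in sets 1, 2 and 3 on the arrays with treated RNA in Cy5 (here called the Cy5 arrays), and 1.09, 1.40 and 1.34 on those with treated RNA in Cy3 (the Cy3 arrays). Array values are given in this order of sets throughout. Every array was above 0, and the 3 Cy3 arrays were all above the 3 Cy5 arrays. The mean was 0.96 ± 0.08 (SD, n = 3 sets; 1.95-fold; limma, adjusted p = 1.03e-04).

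Mrpl27 belongs to the family of the bacterial protein that reaches the peptidyl transferase centre, where the ribosome forms peptide bonds. It read 0.58, 0.47 and 0.33 on the Cy5 arrays and 0.43, 0.47 and 0.46 on the Cy3 arrays, so the orientations overlapped and all arrays were above 0. Its mean was 0.46 ± 0.06 (1.37-fold; limma, adjusted p = 0.00511).

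Mrps6 encodes a small subunit protein with a bacterial homologue. It read -0.55, -0.83 and -0.54 on the Cy5 arrays and -0.52, -0.47 and -0.43 on the Cy3 arrays. All arrays were below 0, with the lowest value in set 2. The mean was -0.56 ± 0.08 (limma, adjusted p = 0.00211), the largest decrease among the members.

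Each of the other 6 probes that rose, those of Mrpl1, Mrpl13, Mrpl32, Mrps5 and Mrpl39, lost the call under at least 1 alternative. Probe 5836 of Mrpl1, a gene for the protein of the mobile stalk beside the exit site of the large subunit, read 1.37, 0.47 and 0.24 on the Cy5 arrays and 1.29, 0.38 and 0.27 on the Cy3 arrays. Both arrays of set 1 were far above the other 4. The mean of 0.67 ± 0.58 (adjusted p = 0.0278) became 0.34 without set 1 (adjusted p = 0.066), and the call was also lost without set 2 (adjusted p = 0.0769) or with zeros kept as values (adjusted p = 0.263). The other Mrpl1 probe, 789, was at 0.05 ± 0.16 and did not pass, and the mean of both probes did not pass either (adjusted p = 0.0564).

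Mrpl13, a large subunit protein with a bacterial homologue, read 0.33, 0.22 and -0.16 on the Cy5 arrays and 0.63, 0.97 and 0.74 on the Cy3 arrays. The Cy3 arrays were all higher than the Cy5 arrays, of which 1 was below 0. Its mean was 0.45 ± 0.15 (1.37-fold; adjusted p = 0.0083), and 0.38 without set 2, where it did not pass (adjusted p = 0.0603). It did not pass with zeros kept either (adjusted p = 0.076).

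Mrpl32, whose precursor is cut by the m-AAA protease of the inner membrane before it joins the large subunit, read 0.50, 0.04 and -0.21 on the Cy5 arrays and 1.08, 0.76 and 0.53 on the Cy3 arrays. The orientations did not overlap, and set 1 was highest in both. The mean was 0.45 ± 0.32 (adjusted p = 0.0281). Without set 1 it was 0.28 (adjusted p = 0.142), and without set 2 0.47 (adjusted p = 0.105), neither past the threshold. With zeros kept the call was also lost (adjusted p = 0.205).

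Mrps5, a small subunit protein whose bacterial homologue takes part in accurate decoding, read 0.29, 0.30 and 0.34 on the Cy5 arrays and 0.36, 0.34 and 0.29 on the Cy3 arrays. These 6 values were close together, and the mean was 0.32 ± 0.0038 (1.25-fold; adjusted p = 0.0234). The call was lost without any 1 set (adjusted p = 0.0756 to 0.0832), although the mean stayed at 0.32. Mrpl39, a large subunit protein that resembles part of a threonyl-tRNA synthetase, was at 0.28 ± 0.02 on probe 8743 (adjusted p = 0.04) and at 0.27 ± 0.07 on probe 3166 (adjusted p = 0.0479). Both Mrpl39 probes were above 0 on all 6 arrays, and both lost the call without any 1 set (adjusted p = 0.109 to 0.201). Probe 3166 lost it with zeros kept as well (adjusted p = 0.0598).

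**Figure D3:**
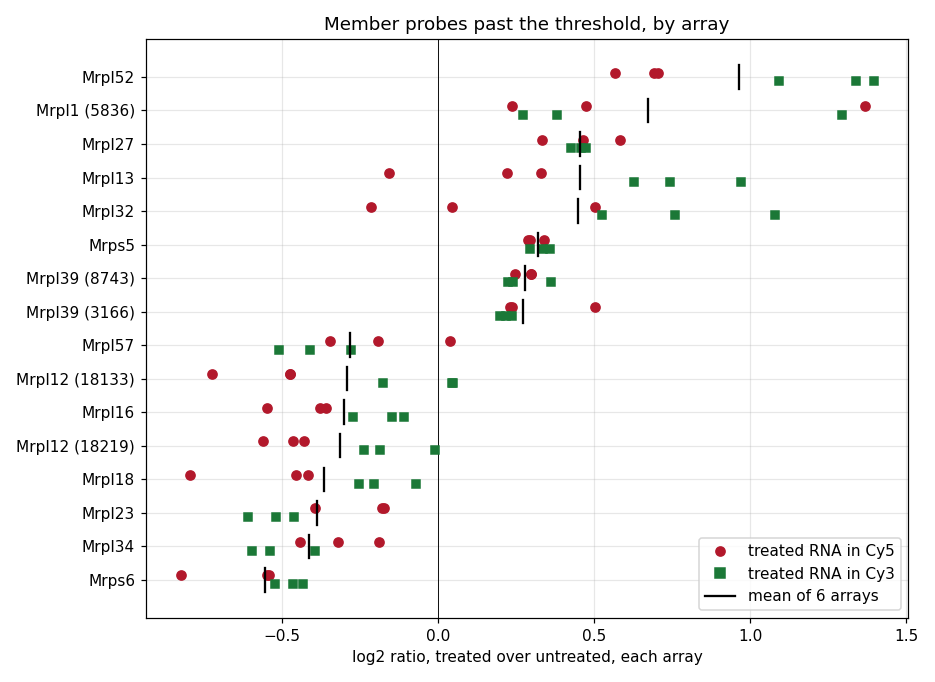
Log2 ratio of treated over untreated cells on each array (x axis) for the 16 member probes past the threshold (y axis). Circles are arrays with treated RNA in Cy5, squares those with treated RNA in Cy3, and the vertical line is the mean of 6 arrays. For 12 of the 16 all arrays lie on 1 side of 0, while Mrpl13, Mrpl32, Mrpl57 and probe 18133 of Mrpl12 cross it.

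All decreases other than Mrps6 were in the large subunit. Mrpl34, with a bacterial homologue, read -0.44, -0.32 and -0.19 on the Cy5 arrays and -0.54, -0.59 and -0.39 on the Cy3 arrays, all below 0 with the Cy5 arrays mostly nearer to it. It averaged -0.41 ± 0.11 (adjusted p = 0.00975), and without set 2 it was at -0.39 and did not pass (adjusted p = 0.059), nor did it with zeros kept (adjusted p = 0.0568). Mrpl23, whose bacterial homologue lies at the exit of the tunnel through which the new chain leaves, read -0.39, -0.17 and -0.18 on the Cy5 arrays and -0.61, -0.46 and -0.52 on the Cy3 arrays. The orientations did not overlap and all arrays were below 0. The mean was -0.39 ± 0.10 (adjusted p = 0.0124), and -0.33 without set 1, which did not pass (adjusted p = 0.0683), and with zeros kept it did not pass either (adjusted p = 0.0564).

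Mrpl18, whose bacterial homologue binds the 5S RNA, read -0.42, -0.46 and -0.79 on the Cy5 arrays and -0.07, -0.25 and -0.20 on the Cy3 arrays. Here the Cy5 arrays were the lower ones, and set 3 was lowest among them. It averaged -0.37 ± 0.13 (adjusted p = 0.0188), with the call lost without set 2 (adjusted p = 0.0761) or set 3 (-0.30, adjusted p = 0.0984), and with zeros kept (adjusted p = 0.0806).

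Mrpl12 forms the stalk that recruits translation factors to the ribosome. Its probe 18219 read -0.43, -0.47 and -0.56 on the Cy5 arrays and -0.24, -0.19 and -0.01 on the Cy3 arrays, and its probe 18133 read -0.47, -0.47 and -0.72 on the Cy5 arrays and 0.05, -0.18 and 0.05 on the Cy3 arrays. On both probes the Cy5 arrays were lower than the Cy3 arrays. The means agreed within their errors, at -0.32 ± 0.03 (adjusted p = 0.0247) and -0.29 ± 0.07 (adjusted p = 0.0363), and both calls were lost without any 1 set (adjusted p = 0.067 to 0.137). With zeros kept the call of probe 18133 was lost (adjusted p = 0.0548).

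Mrpl16, a core large subunit protein with a bacterial homologue, read -0.36, -0.38 and -0.55 on the Cy5 arrays and -0.27, -0.15 and -0.11 on the Cy3 arrays, all below 0. It averaged -0.30 ± 0.04 (adjusted p = 0.0295). Mrpl57, which occurs only in mitochondrial ribosomes, averaged -0.28 ± 0.04 (adjusted p = 0.0387) with 5 of 6 arrays below 0. Both calls were lost when any 1 set was left out (adjusted p = 0.0801 to 0.137).

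Of the 47 tested large subunit probes 7 rose and 7 fell, and of the 18 tested small subunit probes 1 rose and 1 fell. Their medians were -0.08 and -0.06. The large subunit count includes Mrps18a and Mrps30, which carry small subunit symbols but sit in the large subunit. Mrps18a was at 0.24 ± 0.07 (adjusted p = 0.0704) and Mrps30 at -0.13 ± 0.06. Mrps36, known as a component of the 2-oxoglutarate dehydrogenase complex despite its symbol, was at 0.12 ± 0.0045 and did not pass. It averaged -0.06 on the Cy5 arrays and 0.30 on the Cy3 arrays, a difference that the SD of set means does not show. Next to Mrps5, the highest small subunit members were Mrps22 at 0.26 ± 0.03 (adjusted p = 0.0528) and Mrps16 at 0.24 ± 0.18 (adjusted p = 0.113). Next to Mrps6, the lowest were Mrps24 at -0.32 ± 0.25 (adjusted p = 0.0652) and Mrps21 at -0.26 ± 0.14 (adjusted p = 0.0703). Mrps24 had 1 of 6 arrays above 0, in set 2.

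Members were also counted by whether they were listed with a bacterial homologue or as specific to mitochondrial ribosomes. The second class does not mean that a protein resembles no bacterial protein. In the large subunit 4 of 27 tested probes listed with a homologue rose and 6 fell, and 3 of 19 listed as mitochondria-specific rose and 1 fell. In the small subunit 1 of 11 listed with a homologue rose and 1 fell, and of 7 listed as mitochondria-specific 0 rose and 0 fell. The medians of these classes lay between -0.08 and -0.06. Mrpl55, at -0.11 ± 0.08, was put in neither class.

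Among the 50 members that did not pass, 9 had an unadjusted p under 0.05, among them Mrpl19 at 0.24 ± 0.09 (adjusted p = 0.0754) and Mrpl40 at -0.25 ± 0.06 (adjusted p = 0.063). Their means ran from -0.32 to 0.26. The 95% interval of a member's mean was typically ± 0.20 wide (± 0.19 to ± 0.42), so changes of about that size could not be resolved for them. The 2 proteins at the base of the Mrpl12 stalk were among them, with Mrpl10 at 0.08 ± 0.11 (95% interval -0.12 to 0.29) and Mrpl11 at -0.13 ± 0.15 (-0.35 to 0.08). So were Mrpl2 and Mrpl3, whose bacterial homologues lie at the core of the large subunit, at 0.01 ± 0.02 (-0.19 to 0.20) and -0.09 ± 0.22 (-0.33 to 0.15). Mrpl45, which ties the tunnel exit to the inner membrane, was at 0.13 ± 0.07 (-0.06 to 0.33). Mrps12, part of the decoding centre, was at -0.20 ± 0.11 (adjusted p = 0.13).

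The 7 genes with 2 probes show how far probes of a gene agree. Besides Mrpl39 and Mrpl12, whose probes were alike, Mrpl20 gave -0.20 ± 0.06 and -0.15 ± 0.08, and Mrpl58, a release factor built into the large subunit, gave -0.19 ± 0.07 and -0.14 ± 0.05. Mrps33 gave -0.15 ± 0.10 and -0.07 ± 0.07, and Mrpl24 gave -0.02 ± 0.05 and 0.10 ± 0.09. None of these 8 values passed. Mrpl1 was the gene whose probes differed in their calls.

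For 3 members values were missing. Mrpl21 was listed at 0 on 2 arrays, both of set 3, Mrps17 on 3 arrays and Mrpl4 on 4 arrays. The 4 values of Mrpl21 were -0.19 and 0.75 in sets 1 and 2 on the Cy5 arrays and -0.34 and -0.04 on the Cy3 arrays. Mrps17 read -0.26 on the Cy5 array of set 2, and -0.77 and -0.58 on the Cy3 arrays of sets 1 and 2, all below 0. Mrpl4 read -1.06 on the Cy5 array and 0.47 on the Cy3 array of set 3, so its orientations disagreed in sign. None of the 3 could be tested.

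Dye orientation moved with the members' values. The median over the 66 tested members was between -0.18 and -0.12 on the arrays with treated RNA in Cy5 and between 0.05 and 0.12 on those with treated RNA in Cy3, while the median of all tested probes was between -0.01 and 0.02 on every array. Ratios that had not been turned averaged below 0 for 45 members (68.2%), against 52.0% of all tested probes, with medians of -0.10 and -0.01. A test of the dye effect per probe called 0 members (limma, lowest adjusted p = 0.0977) and 0.181% of all probes. In that test 31 of 66 members had an unadjusted p under 0.05, against 3348 of all 12724 tested probes. Averaging both orientations cancels such an effect only as far as it is equal in them. For 10 of the 66 members the 3 Cy5 arrays all lay on the opposite side of 0 from the 3 Cy3 arrays. This was the case for 917 of all 12724 tested probes (7.21%). All 10 were among the members that did not pass. Of the 66 members, 7 were above 0 on all 6 arrays, against 2053 of all 12724 tested probes (16.1%). Below 0 on all 6 were 7 of the 66, against 1789 of all tested probes (14.1%).

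**Figure D4:**
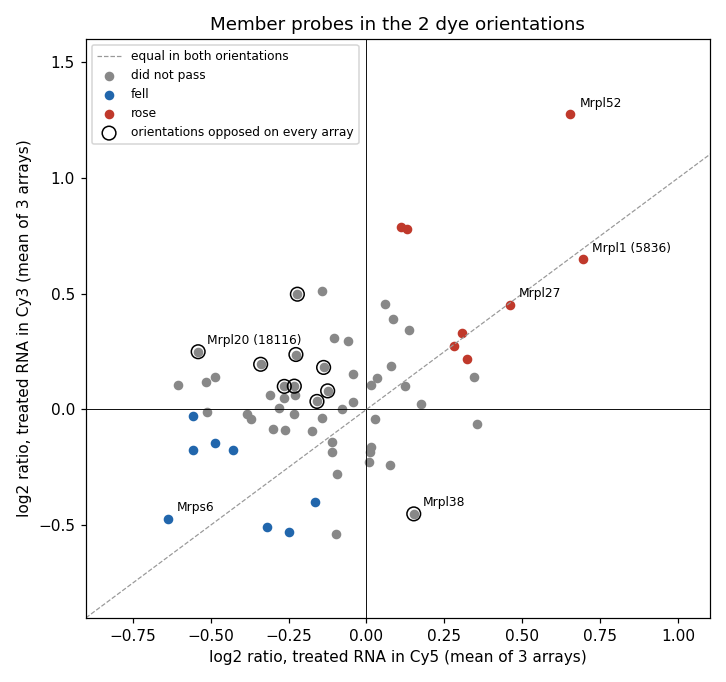
Mean log2 ratio of each tested member probe on the 3 arrays with treated RNA in Cy5 (x axis) and on the 3 with treated RNA in Cy3 (y axis); the dashed line marks equal values. Rings mark the 10 probes whose orientations lie on opposite sides of 0 on every array. More points lie above the line than below it, and Mrpl27 and probe 5836 of Mrpl1 lie close to it.

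In the 3 lists of the same pathway closest to the members, which hold 18 tested probes, 0 probes rose and 4 fell, both probes of Eral1 among them. For these and the lists below, the shares over all tested probes were 14.8% that rose and 12.2% that fell. Of 4 tested probes of mitochondrial ribosome subunits with other symbols 0 rose and 1 fell, Ptcd3 of the small subunit at -0.44 ± 0.20 (adjusted p = 0.0128), and Dap3, the best known of them, gave 0.05 ± 0.14 and -0.04 ± 0.17. In the assembly of the ribosome 0 of 12 probes rose and 3 fell. These were both probes of Eral1, a GTPase that chaperones the small subunit RNA, at -0.39 ± 0.07 (adjusted p = 0.0111) and -0.31 ± 0.08 (adjusted p = 0.0284), and the GTPase Noa1 at -0.33 ± 0.07 (adjusted p = 0.0234), while Mterf3 was highest at 0.19 ± 0.04. Of the translation factors 2 probes were tested and 0 called, Mrrf, which recycles ribosomes, at 0.06 ± 0.13 and Mtfmt, which formylates the initiator tRNA, at -0.16 ± 0.08.

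Among mitochondrial tRNA synthetases and amidotransferase subunits 1 of 8 tested probes rose and 2 fell, namely Fars2 at 1.23 ± 0.13 (adjusted p = 3.14e-05), Ears2 at -0.78 ± 0.18 (adjusted p = 6.64e-04) and probe 4255 of Cars2 at -0.43 ± 0.19 (adjusted p = 0.013). The other Cars2 probe was at -0.21 ± 0.17 without passing. Of 11 tested probes for mitochondrial DNA transcription, replication and RNA handling 1 rose, the RNA-binding protein gene Slirp at 0.99 ± 0.27 (adjusted p = 4.01e-04), and 2 fell, the polymerase Polg at -0.51 ± 0.07 and the packaging factor Tfam at -0.34 ± 0.17 (adjusted p = 0.0307). Of 7 probes for regulators of mitochondrial biogenesis, Nrf1 fell by 0.77 on the log2 scale (SD 0.24, adjusted p = 0.0012), Myc rose by 2.47 ± 0.03, and the other 5, Gabpa, Gabpb1, Yy1, Esrra and Ppargc1a, lay between -0.19 and 0.17 without passing. In import and chaperones 2 of 32 rose, Lonp1 at 0.33 ± 0.21 and Hspe1 at 0.29 ± 0.10, and 4 fell, with Timm10 lowest at -0.55 ± 0.05, then Timm9 at -0.48 ± 0.04, Hspd1 at -0.38 ± 0.18 and 1 of 2 probes of Tomm40 at -0.33 ± 0.08.

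For comparison, of 26 tested probes of cytosolic ribosomal proteins 0 rose and 1 fell, with a median of -0.07, and 45 of 71 such probes had a value of 0 on at least 1 array and were not tested. Of 60 tested probes of nuclear subunits of oxidative phosphorylation 3 rose and 6 fell, with a median of -0.04. No test of the difference between these lists and the mitochondrial ribosomal proteins was made.

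The nearest protein-coding gene on each side of the changed members was looked up in RefSeq, at whatever distance. Of 25 tested probes of these neighbours 3 rose and 3 fell, against 1887 and 1556 of all 12724 tested probes (14.8% and 12.2%). Mrpl52 lies between Slc7a7, an amino acid transporter gene, and the matrix metalloproteinase gene Mmp14. Slc7a7 rose by 0.81 ± 0.26 (adjusted p = 0.00108), and of the 2 probes of Mmp14 1 rose by 1.75 ± 0.29 (adjusted p = 1.74e-05) while the other was at 0.03 ± 0.25. Mrps6 overlaps the inositol transporter gene Slc5a3, whose probe was at -0.46 ± 0.67 and did not pass (adjusted p = 0.139). Without probe sequences it could not be checked whether a probe reads the neighbouring gene. Next to Mrpl12, the carrier gene Slc25a10 fell by 0.41 on the log2 scale (SD 0.01, adjusted p = 0.00739), and next to Mrpl13 the collagen gene Col14a1 rose by 0.32 ± 0.20 (adjusted p = 0.0497). Mal lies 29240 bases from Mrps5, which rose, and 1 of 2 probes of Mal fell to -0.32 ± 0.12. On the left of Mrpl39, which rose, the nearest gene was Ncam2, 3093991 bases away, which fell to -0.33 ± 0.11. The probes of Jam2, 38879 bases away on the right, did not pass.

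The 2 members that share a start region are Mrps11 of the small and Mrpl46 of the large subunit, which lie head to head with 42 bases between their annotated starts. They were at -0.12 ± 0.06 and -0.08 ± 0.13, and neither passed. The 250 bases before the start of Mrps11, at chr7:78782881-78783130 on the plus strand of GRCm38.p6 (RefSeq), are shown. They hold the start of Mrpl46 and end just before that of Mrps11. Capitals mark the YY1 letters AAGATGGC, as the reverse complement, which begin 107 bases before the start of Mrps11. These letters lie past the start of Mrpl46, on the side of its transcript, and not between the 2 starts.
Mrps11: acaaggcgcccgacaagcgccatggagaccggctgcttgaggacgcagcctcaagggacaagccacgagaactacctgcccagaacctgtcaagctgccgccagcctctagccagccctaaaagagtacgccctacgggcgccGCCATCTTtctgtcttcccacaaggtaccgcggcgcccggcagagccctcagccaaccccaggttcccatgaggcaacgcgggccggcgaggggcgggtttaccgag

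Promoter windows, from 250 bases before to 50 after the start, were held for 56 of the 62 member genes. The ETS letters CCGGAAG were in 20 of them (35.7%), against 14.7% of the windows of 8497 genes on the array. The YY1 letters AAGATGGC were in 9 (16.1%, against 3.95%), the core letters of the NRF1 site, CGCATGCG, in 6 (10.7%, against 3.65%) and the E-box CACGTG, which Myc can bind, in 2 (3.57%, against 10.5%). Both strands were searched, and since CCGGAAG ends with the letters AAG that begin AAGATGGC, an ETS and a YY1 match can overlap there. The ETS letters were in 2 of 6 genes that rose and had a window and in 3 of 7 that fell, and the NRF1 letters in 2 of 6 and 0 of 7. A match is a description of the sequence and shows no binding.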

How the data were processed

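Per the labels, each of the 6 two-colour arrays set RNA of treated cells against RNA of untreated cells. The values the authors deposited are log ratios, read here as log2 of Cy5 over Cy3. How background and dyes were corrected is not given in the sources used here. Each array has a median of 0 as deposited, and 1011 of 16281 probes were 0 on all arrays. Symbols came from the platform annotation (13738 probes with 1 symbol, 52 with several, 2491 with none), and RefSeq (GRCm38.p6) held all 62 member genes by gene ID. All columns were mapped to a sample.

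Zeros were set to missing, the sign was turned on the 3 arrays with treated RNA in Cy3, both orientations of a set were averaged, and limma 3.58.1 tested whether the mean of 3 sets differed from 0, in R 4.3.3 (lmFit, eBayes, two-sided, Benjamini-Hochberg over 12724 probes with 6 values). Dye effects were tested likewise on ratios that were not turned. Errors are SDs of set means, in which a difference between the orientations does not show, and 95% intervals come from limma. The number of arrays limits the precision. The fit was tested on simulated ratios. The members and lists were chosen with earlier results of these data known, so no test over the list was made. Values are given for every called member, with those of each array for the 6 largest changes in each direction, the 3 highest and lowest of each subunit, genes with several probes, members listed at 0, members whose orientations oppose each other, and called, highest and lowest genes of the other lists. Further members were named after their values were seen. The alternatives kept zeros, centred arrays anew, averaged probes per gene, used 6 arrays with or without a set block, allowed 2 sets, left out each set, or used robust eBayes.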

Additional observations from a re-analysis of the deposited data

Results flagged for a closer look

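For 10 of 66 tested member probes all arrays with treated RNA in Cy5 read on the opposite side of 0 from all arrays with treated RNA in Cy3. This was the case for 917 of all 12724 tested probes (7.21%). The difference of the orientation means (Cy5 minus Cy3, 3 arrays each) was -0.79 for probe 18116 of Mrpl20, -0.72 for Mrpl30, -0.53 for Mrps15, -0.46 for Mrpl2, -0.36 for Mrpl42, -0.33 for probe 15807 of Mrps33, -0.32 for Mrps9, -0.2 for probe 2718 of Mrpl24 and -0.19 for Mrps31. It was 0.6 for Mrpl38, the member in which the Cy5 arrays were the higher ones. The dye test of limma passed for none of the 10 (adjusted p = 0.0977 to 0.312). Of the 66 tested members 31 had an unadjusted p under 0.05, against 3348 of all 12724 tested probes. The treatment means of these 10 lay between -0.15 and 0.14 and did not pass.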

How the results depend on the processing

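No member past the threshold changed direction under any of the 10 alternatives. With zeros kept, 5 members rose and 4 fell, against 8 and 8, and 903 of all probes rose and 504 fell, against 1887 and 1556. There, 16281 probes entered the fit, among them 1011 that were 0 on all arrays, and 8 of the 16 member calls were lost. The means of these 16 stayed the same. The weight limma gave to the spread shared by all probes (prior degrees of freedom) was 0.76, against 6.33 in the main fit. Leaving out each set in turn gave 2 to 5 members that rose and 3 that fell each time, 1358 to 1577 of all probes that rose and 833 to 1137 that fell, with 1 residual degree of freedom per probe from 2 set means. These left 10, 12 and 8 of the 16 member calls lost without set 1, 2 and 3. The median over tested members ran from -0.08 to -0.05 there. Set numbers were shared by the orientations. Deviations from the orientation means correlated at 0.53, 0.08 and 0.17 for sets 1, 2 and 3, not above 0.1 in every set. The fit with set as a random block is given only as an alternative. The main fit pairs the arrays by set too, since it averages both orientations per set by the set numbers of the labels. Its p-values therefore depend on that pairing, for which the correlation in set 2 gives little ground. With no replicate block 10 members rose and 12 fell, and with set as a random replicate block (consensus correlation 0.349) 9 rose and 7 fell, with 1 call lost, Mrpl57 (adjusted p = 0.0579). Allowing 2 sets lost the call of probe 3166 of Mrpl39 (adjusted p = 0.0515), and averaging probes per gene that of Mrpl1. Centring, robust estimation and the fit with no replicate block lost 0 calls.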
